A study of Bos taurus with 8 samples.

Results

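The let-7 and miR-98 family was followed in extracellular vesicles (EVs) of bovine follicular fluid (FF), the fluid that surrounds the oocyte in the ovarian follicle. Its 9 members are the mature guide arms bta-let-7a-5p, bta-let-7b, bta-let-7c, bta-let-7d, bta-let-7e, bta-let-7f, bta-let-7g, bta-let-7i and bta-miR-98, taken by name from the 1028 mature miRNAs of the deposited table. All 9 were found there, and all 9 had a mean above 10 CPM (reads per 1000000, scaled by the authors with TMM), the level needed to enter the season test together with 234 other miRNAs.

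The libraries came from dry, non-pregnant Bos taurus crossbreed beef cows kept outdoors, 11 in the study, whose follicles were aspirated in winter (WIN) and again in summer (SUM) after the same progesterone, GnRH and FSH treatment. Each season has 4 small-RNA libraries, each from FF pooled from 2 cows, with 8 mL of FF per replicate. Each season was sampled at 1 collection, so season and collection cannot be told apart, and the sources do not say which SUM pool and which WIN pool share cows. The libraries held 214004 to 902642 miRNA reads in SUM and 235340 to 1689467 in WIN, and 1 read was worth 0.567 to 4.02 CPM. SUM replicate 3 and WIN replicate 1 were the shallowest. Of the 4 listed miRNAs of granulosa cells, which line the follicle, miR-202 was abundant (3086 to 11850 CPM) while miR-383 and miR-212 stayed at or below 18.8 and 6.93 CPM.

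let-7 miRNAs share the seed, bases 2 to 8 of the mature strand, through which a miRNA pairs with its target mRNAs, and differ from each other at few other positions. In mammals they restrain growth-promoting genes such as HMGA2, MYC and the RAS genes, and the RNA-binding protein LIN28 blocks the maturation of their precursors. The family is abundant in differentiated tissues, the ovary included. Because the members are so alike, reads of one could be counted for another, and the split between near-identical members is uncertain in these counts.

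The 9 mature miRNAs come from 12 hairpin genes in the RefSeq annotation of the ARS-UCD2.0 assembly, which differs from the assembly of the authors and was used only for names and neighbours. let-7a-5p is made from 3 hairpins and let-7f from 2, and the other 7 members from 1 each. Within 10 kb, MIRLET7A-1 stands with MIRLET7F-1 and MIRLET7D, and MIRLET7F-2 with MIR98. MIRLET7A-3 stands with MIRLET7B, and MIR2443 and MIR3596 lie within the same distance of both. MIRLET7C stands with MIR99A, MIRLET7E with MIR99B and MIR125A, and MIRLET7A-2 with MIR100, the arrangement known as let-7, miR-99/100 and miR-125 clusters. MIRLET7I and MIRLET7G have no other miRNA gene within 10 kb. MIRLET7G lies inside WDR82, a subunit of histone methyltransferase complexes, and MIR98 and MIRLET7F-2 lie inside HUWE1, a ubiquitin ligase.

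As a group the family held a smaller part of the miRNA pool in summer than in winter. In SUM it made up 9.41%, 8.67%, 8.29% and 9.93% of the summed CPM (replicates 1 to 4). In WIN it made up 13.3%, 17.7%, 12.3% and 15.3%. Every WIN library thus lay above every SUM library, with 14.6% ± 2.36 against 9.07% ± 0.737 (SD, n = 4 each), a gap of 5.57 percentage points. Taken one by one as such shares, 8 members had every SUM library below every WIN library, which was so for 10.3% of all tested miRNAs. The Wilson 95% intervals were narrow beside this gap, from 8.17 to 8.41% in SUM replicate 3 and from 12.3 to 12.4% in WIN replicate 3, and they cover counting error only. These shares do not depend on the scaling of a library, and no test was made of a sum over the members. As a percent of 1000000 TMM-adjusted CPM the gap was 3.96 points. Among the markers of other cells, the summed CPM of the 4 granulosa miRNAs was 5680 to 11932 in SUM and 3163 to 5613 in WIN. Nearly all of this sum was miR-202 (5628 to 11850 and 3086 to 5539 CPM), which limma did not call (adjusted p = 0.11), while miR-132 (40.2 to 79.5 and 31.2 to 72.7 CPM) overlapped between seasons. Red blood cell miRNAs (3 listed, miR-144 at most 13.9 CPM) ranged from 5262 to 12731 CPM in SUM and from 2439 to 25918 in WIN, and the 5 white blood cell miRNAs from 728 to 1167 and from 528 to 777. The 3 of liver and plasma ranged from 5571 to 10704 CPM and from 6654 to 22085, and both endothelial miRNAs together from 1065 to 2418 and from 2290 to 3595. By limma, 5.35% of all tested miRNAs were called higher in SUM and 2.47% lower. Of the 12 markers tested, limma called miR-142-5p of white blood cells higher and miR-126-3p of endothelial cells lower in SUM (adjusted p = 0.062 and 0.094). Others of the same lists went both ways. On the log2 scale miR-150 was at 0.75 (limma adjusted p = 0.53), miR-155 at -0.18 and miR-126-5p at 0.12. Too low to be tested, miR-142-3p and miR-223 averaged 3.60 and 8.25 CPM in summer and 9.55 and 11.0 CPM in winter. The part of these cells in the family's values was not tested.

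The family was dominated by 5 members, let-7b, let-7a-5p, let-7i, let-7f and let-7c, each with a mean above 10000 CPM over the 8 libraries. Together these held 91.6% ± 0.492 of the family in SUM and 90.6% ± 0.613 in WIN (SD, n = 4), and the seasons overlapped. All 5 were among the 20 most abundant miRNAs of the table by mean CPM, with let-7b at rank 6 and let-7a-5p at rank 7. let-7g followed at rank 22, and let-7e, let-7d and miR-98 stood at ranks 51, 52 and 75. Mature miRNAs have nearly the same length and each read is 1 mature strand, so length does not set these levels apart. How well each sequence enters a library also differs and was not measured. The order of members in reads may therefore not be their order in the vesicles.

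**Figure D1:**
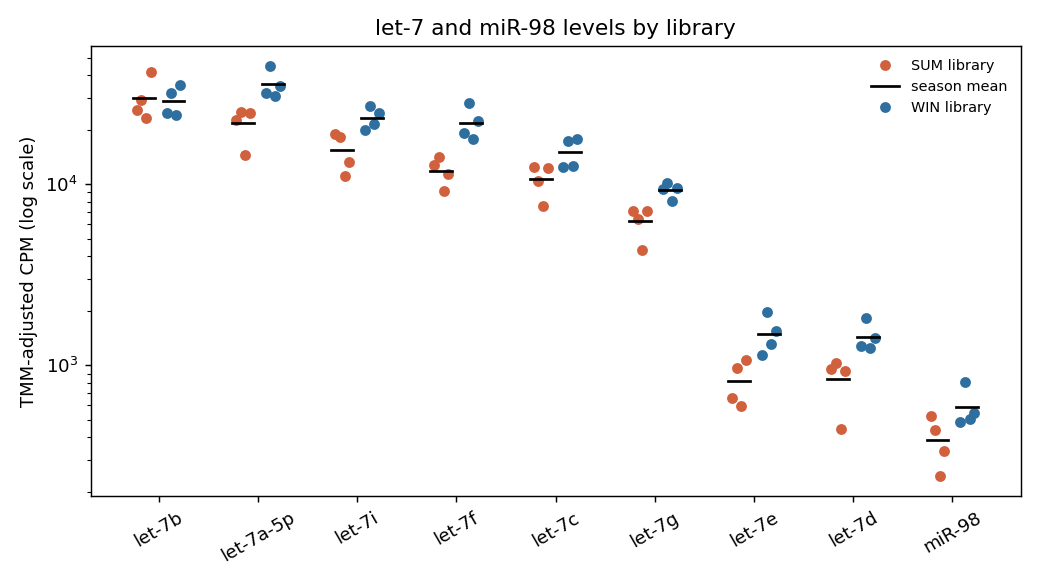
TMM-adjusted CPM (log scale) of each family member in the 4 SUM and 4 WIN libraries, 1 point per library, with a line at the mean of each season, members ordered by mean level. For 7 members all SUM points lie below all WIN points, while for let-7b and miR-98 the seasons overlap.

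let-7b, the most abundant member by mean CPM, overlapped between seasons. It stood at 25809, 29282, 23340 and 41557 CPM in the SUM libraries and at 24574, 31970, 24212 and 35159 CPM in the WIN libraries (replicates 1 to 4). The highest value of both seasons was that of SUM replicate 4, and the SUM and WIN libraries were interleaved. The log2 fold change of SUM over WIN was 0.03 (standard error 0.24, limma adjusted p = 0.96). Its sign turned to -0.15 when every library was rescaled to the same summed CPM, without SUM replicate 4 (-0.14) and in other settings, and it was not called in any of the 22 alternatives.

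let-7a-5p, the member with the most hairpin genes, was the member whose SUM and WIN libraries stood farthest apart in CPM. It stood at 22597, 24960, 14570 and 24784 CPM in the SUM libraries and at 31822, 44715, 30840 and 34786 CPM in the WIN libraries. SUM replicate 3 was the low end and WIN replicate 2 the high end. No SUM library reached 30840 CPM, the lowest WIN value. On the log2 scale the difference was -0.73 (standard error 0.24), smaller than those of let-7e, let-7f and let-7d (-0.87, -0.87 and -0.83). The difference of let-7a-5p was not called by limma (adjusted p = 0.11). The exact permutation test of the CPM gave p = 0.029 (two-sided), below which 4 libraries against 4 cannot go.

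let-7f was the only member called in the season test. It stood at 12840, 14199, 9200 and 11326 CPM in the SUM libraries and at 19251, 27963, 17835 and 22250 CPM in the WIN libraries, so that even the highest SUM library stood below the lowest WIN library. The mean was 1.84-fold higher in WIN (log2 fold change -0.87, standard error 0.23, limma adjusted p = 0.067). The call ended without SUM replicate 2 (adjusted p = 0.15), SUM replicate 4 (0.13), WIN replicate 2 (0.18), WIN replicate 3 (0.11) or WIN replicate 4 (0.17), and the log2 fold change stayed between -0.96 and -0.75 over the 8 left-out libraries.

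let-7i, whose hairpin gene stands alone, stood at 18921, 18219, 11107 and 13236 CPM in the SUM libraries and at 19853, 27010, 21415 and 24673 CPM in the WIN libraries. The gap between the seasons was narrow, since SUM replicate 1 stood just under WIN replicate 1. Its log2 fold change was -0.62 (standard error 0.23, limma adjusted p = 0.15).

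let-7c, the member beside miR-99a, came closest to overlapping among those that did not. It stood at 12392, 10384, 7530 and 12260 CPM in the SUM libraries and at 12417, 17371, 12568 and 17810 CPM in the WIN libraries. SUM replicate 1 and WIN replicate 1 were almost equal, and WIN replicate 4 rather than WIN replicate 2 was highest. The log2 fold change was -0.51 (standard error 0.24, limma adjusted p = 0.25). let-7g stood at 7074, 6427, 4316 and 7083 CPM in the SUM libraries and at 9385, 10217, 8097 and 9541 CPM in the WIN libraries, and its WIN libraries were the more even ones.

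let-7e and let-7d were nearly equal in level, and the order between them was not the same in all libraries. let-7e stood at 659, 971, 599 and 1064 CPM in the SUM libraries and at 1141, 1980, 1316 and 1549 CPM in the WIN libraries, with a difference of -0.87 on the log2 scale (standard error 0.29, limma adjusted p = 0.11). let-7d stood at 954, 1030, 442 and 933 CPM in the SUM libraries and at 1279, 1814, 1241 and 1421 CPM in the WIN libraries, with a difference of -0.83 on the log2 scale (standard error 0.31, limma adjusted p = 0.15). Both had about as large a difference as let-7f with wider errors, but the low value of let-7d in SUM replicate 3 rested on 110 reads. Without that library let-7d was at -0.55, let-7e at -0.74 and let-7f at -0.76 on the log2 scale. miR-98, the least abundant member, stood at 527, 438, 245 and 337 CPM in the SUM libraries and at 486, 803, 507 and 544 CPM in the WIN libraries. SUM replicate 1 stood above 2 WIN libraries, and the log2 fold change was -0.62 (standard error 0.30, limma adjusted p = 0.25, exact permutation test, p = 0.086).

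The order of the members was much the same in the seasons except at the top. let-7b stood above let-7a-5p in 4 of 4 SUM libraries, and let-7a-5p stood above let-7b in 3 of 4 WIN libraries, the exception being WIN replicate 4. In both seasons let-7i and then let-7f came next, ahead of let-7c, but neighbouring members from the first to the fifth place differed by less than the sum of their SDs, although the ranges of let-7f and let-7c did not overlap in WIN. The steps from let-7c to let-7g and from let-7g to the next member were larger than the sum of the SDs, and there the ranges did not overlap. The same held for miR-98 and its neighbour, let-7e in SUM and let-7d in WIN, while let-7d in SUM replicate 3 (442 CPM) lay below miR-98 in SUM replicate 1 (527 CPM). let-7d stood above let-7e in 2 of 4 SUM libraries and let-7e above let-7d in 3 of 4 WIN libraries.

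Over the whole family 1 member was called lower in SUM and none higher, where 2.47% and 5.35% of all 243 tested miRNAs were called lower and higher by limma. The call required a fold change over 1.5 together with an adjusted p under 0.1. At an unadjusted p below 0.05, 6 of the 9 members were lower, against 9.88% of all tested miRNAs. A negative log2 fold change was seen in 8 of 9 members, against 48.6% of all tested miRNAs, with a median of -0.62 over the members and 0.02 over all. For 7 members (let-7a-5p, let-7c, let-7d, let-7e, let-7f, let-7g and let-7i) no SUM library reached the level of any WIN library, which was so for 7.82% of all tested miRNAs. The exact permutation test gave p = 0.029 for each of these 7, a value that the lack of overlap fixes in advance and that adds nothing to it. The members cannot be counted as separate observations, since 8 of them kept close ratios to each other, as given below. In SUM replicate 3, a shallow library, all 9 members had their lowest CPM of the 8 libraries. In WIN replicate 2 the highest CPM was found for 7 members. SUM replicate 3 also had the smallest summed CPM (860872), and such counts in CPM depend on the scaling of the library. The same counts were not made over all tested miRNAs. Without SUM replicate 3 and WIN replicate 1, the shallowest library of each season, let-7e was called lower beside let-7f (limma adjusted p = 0.082 and 0.060), where 4.56% of all tested miRNAs were lower and 9.96% higher.

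**Figure D2:**
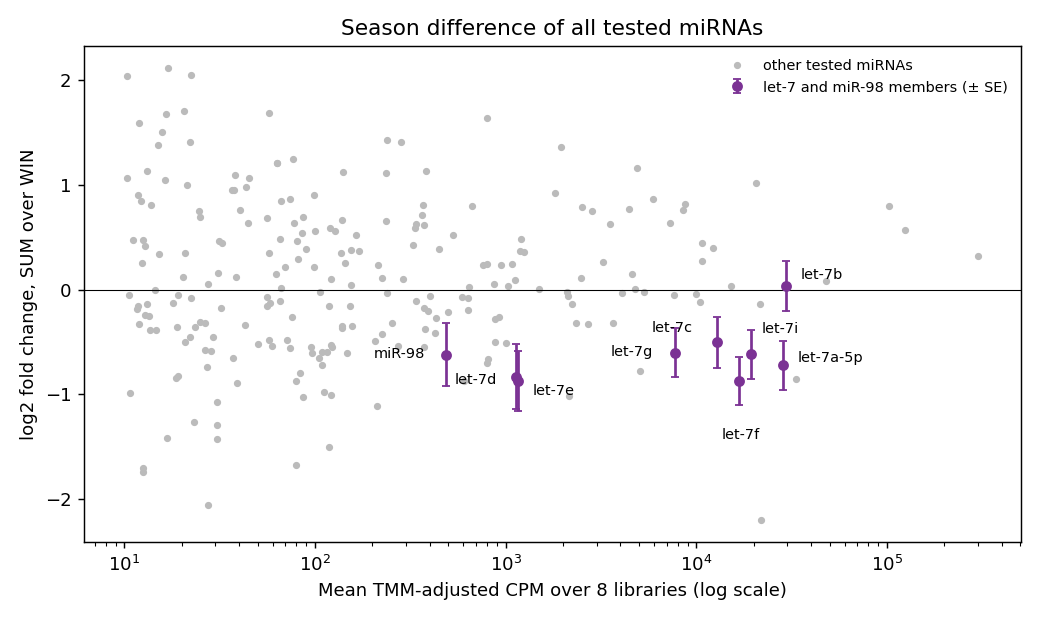
log2 fold change of SUM over WIN (limma on log2(CPM + 1)) against the mean TMM-adjusted CPM over 8 libraries (log scale) for the 243 tested miRNAs. Grey points are other miRNAs and purple points with standard errors the 9 family members, of which let-7b is at 0.03 and the others between -0.87 and -0.51.

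How many members passed depended on how the libraries were scaled and on the test. When each library was rescaled to 1 common sum of CPM, the median over all tested miRNAs went from 0.02 to -0.17 on the log2 scale and that of the members to -0.81. limma then called 8 of 9 members lower (9.05% of all tested lower, 4.53% higher), all but let-7b. With size factors from the median of ratios, a scaling that put the median of all tested miRNAs at -0.02, limma called 6 members lower (6.17% of all tested lower, 8.23% higher). edgeR and voom on the recovered reads also called 6 (6.17% lower and 8.23% higher in each), and so did DESeq2 (9.05% lower, 9.47% higher). In each of these 4 settings the 6 were let-7a-5p, let-7d, let-7e, let-7f, let-7g and let-7i. By edgeR the log2 fold changes of these 6 ran from -0.91 for let-7f to -0.62 for let-7g, with adjusted p = 0.042 for let-7f, 0.051 for let-7a-5p and 0.066 for let-7e. With a mean above 100 CPM as the filter, limma called 3 members lower (let-7a-5p, let-7e and let-7f, beside 6.11% of all tested lower and 9.92% higher). With robust variance it called the same 3 (3.29% lower, 5.76% higher), and with the replicate number as a block again these 3 (4.12% lower, 6.17% higher). let-7c and miR-98 were called in 1 alternative each, the rescaling to equal summed CPM. No member was called without the abundance filter or without the trend in the variance. At an adjusted p below 0.05, the limma test of all 243 miRNAs on the deposited scaling without a block called none either, while let-7f had an adjusted p of 0.045 by limma among the 131 miRNAs above 100 CPM.

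**Figure D3:**
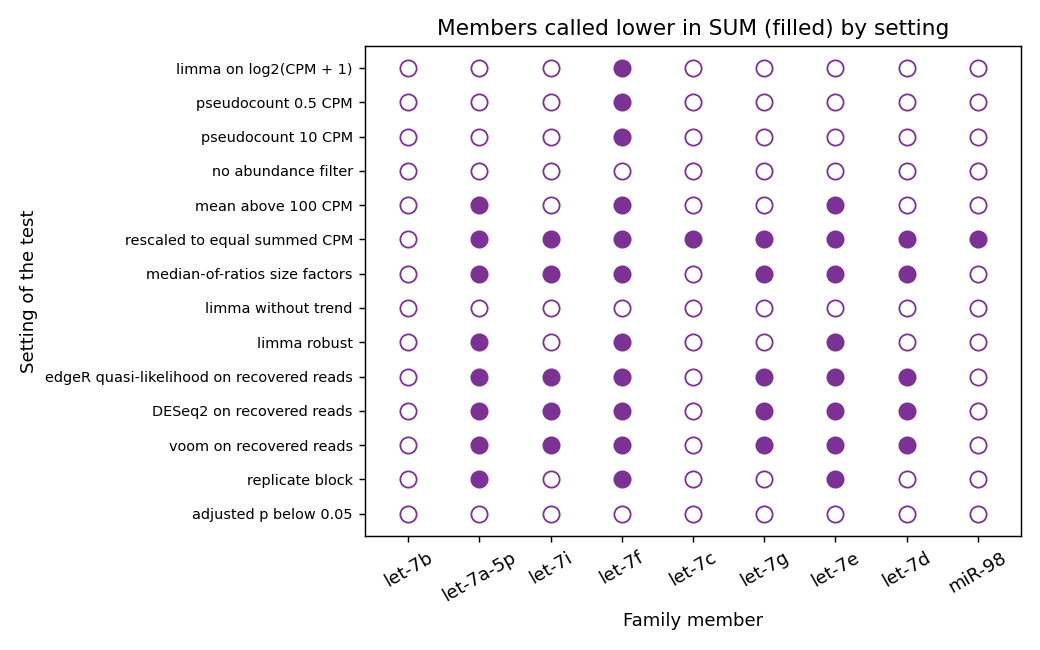
Members called lower in SUM (filled circles) and not called (open circles) for each setting of the season test, with members ordered by mean level. let-7b is open in every setting, let-7f is filled wherever any member is, and rescaling to equal summed CPM fills 8 members.

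Within the family let-7b held a larger part in summer than in winter. let-7b made up 25.4%, 27.6%, 32.7% and 36.9% of the family CPM in SUM and 20.4%, 19.5%, 20.5% and 23.8% in WIN (replicates 1 to 4), and its SUM libraries all lay above its WIN libraries. let-7f made up 12.2% ± 1.49 in SUM and 15.8% ± 0.944 in WIN (SD, n = 4), with every SUM library below every WIN library, and let-7e likewise 0.837% ± 0.134 and 1.08% ± 0.109. let-7a-5p made up 22.1% ± 1.29 and 25.9% ± 1.62, where SUM replicate 2 (23.6%) reached just above WIN replicate 4 (23.5%). The share of let-7c was 10.9% in both seasons (SD 0.990 and 0.777). let-7g (6.34% and 6.84%), let-7i (15.8% and 17.0%), let-7d (0.840% and 1.05%) and miR-98 (0.394% and 0.423%) overlapped between seasons. SUM replicate 4 had both the highest share of let-7b and the lowest of let-7i (11.8%), let-7f (10.1%) and miR-98 (0.299%) of all 8 libraries. The Wilson 95% intervals of these shares reached at most 0.690 points to either side, for let-7b in SUM, and no test was made of the shares.

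**Figure D4:**
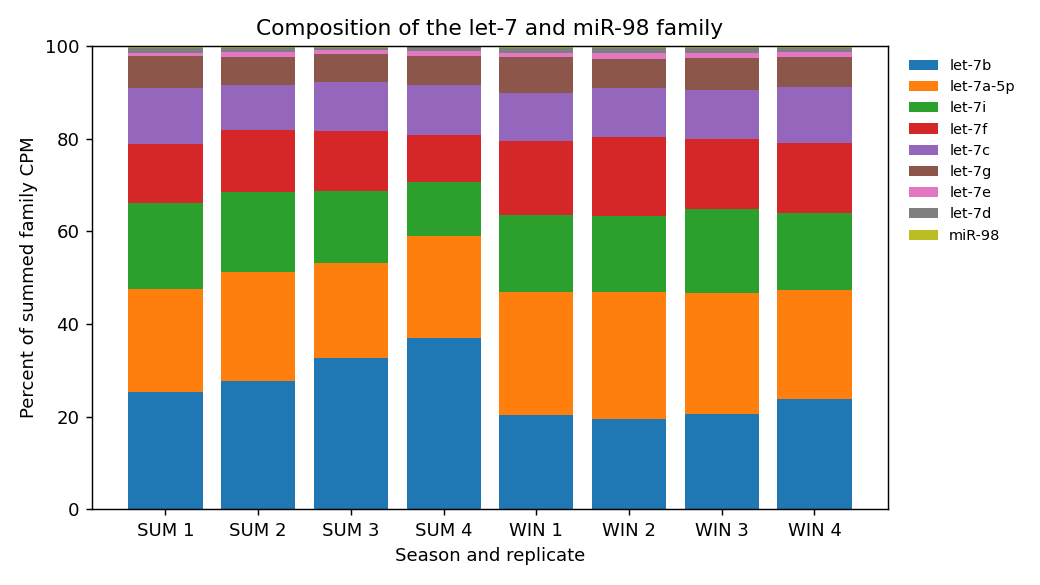
Share of each member in the summed family CPM (percent) in each library, 1 stacked bar per library, members ordered by mean level from the bottom. The let-7b part is 25.4 to 36.9% in SUM and 19.5 to 23.8% in WIN, and the miR-98 part, at most 0.518%, is too thin to be seen.

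Ratios between members in the same library cancel any scaling of that library. Relative to let-7b, 5 of the 8 other members (let-7a-5p, let-7c, let-7d, let-7e and let-7f) had log2 ratios that were lower in the SUM libraries without overlap, which was so for 7.44% of the 242 other tested miRNAs. let-7b was not fixed as the reference beforehand. It was at a log2 fold change of 0.03 and the others at -0.87 to -0.51, so lower mean ratios to it were certain in advance. They add nothing to the season differences of the members. let-7a-5p had a log2 ratio to let-7b of -0.19, -0.23, -0.68 and -0.75 in SUM and of 0.37, 0.48, 0.35 and -0.02 in WIN. In CPM, let-7a-5p was thus at 0.737 ± 0.147 times the level of let-7b in SUM and at 1.24 ± 0.175 times in WIN (SD, n = 4). The mean log2 ratio to let-7b differed most for let-7e and let-7f, by -0.91 between SUM and WIN for each. let-7g, let-7i and miR-98 differed by -0.64, -0.65 and -0.66, with overlap between seasons.

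**Figure D5:**
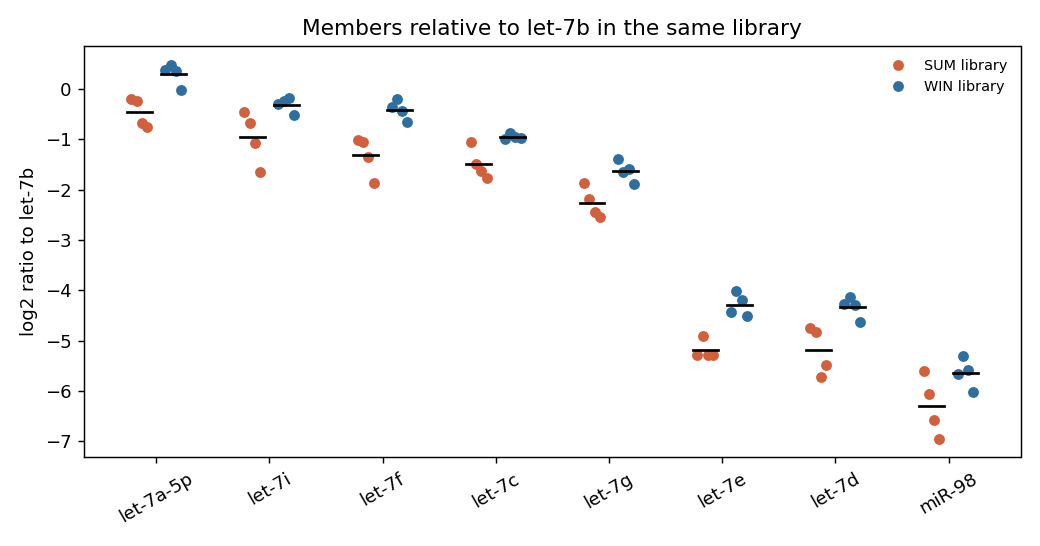
log2 ratio of each member to let-7b in the same library, on log2(CPM + 1), 1 point per library with a line at the mean of each season. The SUM libraries lie lower for all 8 members on average and without overlap for let-7a-5p, let-7f, let-7c, let-7e and let-7d.

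The other 8 members kept closer ratios to each other than to let-7b. The SD of the log2 ratio over the 8 libraries, a measure of how unlike 2 patterns are, had a median of 0.23 over the 28 pairs without let-7b and of 0.51 over the 8 pairs with it. Over all 8515 pairs that 131 miRNAs averaging over 100 CPM can form, the median was 0.72. These miRNAs were not matched to the members in abundance, and counting error widens the ratios of those with fewer reads. The closest pair was let-7a-5p and let-7g (0.14), which share no hairpin cluster, followed by let-7i and miR-98, let-7c and let-7g, and let-7a-5p and let-7d (0.15 each). The widest was let-7b and let-7d (0.57). None of the 28 pairs without let-7b had ratios that separated the seasons, while 5 of the 8 with let-7b did, against 18.2% of all 8515 pairs. These 5 are the same ratios to let-7b as above. Misassigned reads between near-identical members would also hold their ratios close, and their share was not tested.

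Members with neighbouring hairpins did not move alike in every case. let-7a-5p has 3 hairpin genes and let-7f 2, and mature reads do not tell which hairpin they came from. Ratios with these 2 members therefore do not show how single clusters behaved. let-7a-5p and let-7d, which share a cluster through MIRLET7A-1, held a nearly fixed ratio in WIN. There let-7a-5p was 24.9, 24.6, 24.9 and 24.5 times as abundant (replicates 1 to 4). In SUM the ratio was 23.7, 24.2, 32.9 and 26.6, and SUM replicate 3, in which let-7d had 110 reads, was apart. let-7a-5p and let-7f were at 1.82 ± 0.257 to 1 in SUM and 1.64 ± 0.0721 to 1 in WIN. let-7b and let-7a-5p, which share a cluster through MIRLET7A-3, were the neighbours whose ratio separated the seasons. let-7f and miR-98, neighbours within HUWE1 through MIRLET7F-2 only, were at 32.0 ± 5.52 to 1 in SUM and 37.6 ± 3.07 to 1 in WIN, with overlap.

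None of the 5 partner miRNAs of the let-7 clusters was called in either direction (2.47% of all tested lower, 5.35% higher), and their median log2 fold change was -0.07. miR-99a-5p had a positive log2 fold change of 0.57 (standard error 0.22, limma adjusted p = 0.16), while let-7c beside it was at -0.51. The ratio of let-7c to miR-99a-5p was 0.0790, 0.0619, 0.0642 and 0.0846 in SUM and 0.168, 0.194, 0.0896 and 0.178 in WIN, so that even the lowest WIN library, replicate 3, stood above every SUM library. let-7c kept a closer ratio to miR-125b, of which 1 hairpin gene lies farther along the same cluster. That ratio was 4.52, 5.05, 4.81 and 5.60 to 1 in SUM and 6.32, 6.79, 6.15 and 6.37 to 1 in WIN, again without overlap. Of all 8515 pairs of miRNAs above 100 CPM, 18.2% had ratios without overlap between seasons. miR-100, the partner of MIRLET7A-2, was at -0.32 (standard error 0.21, limma adjusted p = 0.36), though its SUM libraries all lay below its WIN libraries (2905 to 3603 and 3741 to 4863 CPM). miR-99b and miR-125a, beside let-7e, were at -0.07 and -0.05 and changed sign with left-out libraries, among them SUM replicate 3 (0.12 and 0.43). miR-125a varied widely within each season, from 2229 to 17878 CPM in SUM and from 4053 to 14638 CPM in WIN. Its ratio to let-7e overlapped between seasons, as did that of miR-99b.

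The opposite arm, bta-let-7a-3p, is cut from the other strand of let-7a hairpins and overlapped between seasons. It stood at 205, 291, 169 and 256 CPM in the SUM libraries and at 168, 134, 227 and 258 CPM in the WIN libraries, which is 0.24 on the log2 scale (standard error 0.30, limma adjusted p = 0.66). let-7a-5p was 110, 85.9, 86.2 and 96.7 times as abundant as the 3p arm in SUM and 189, 333, 136 and 135 times in WIN. The ratio of the arms thus separated the seasons, as did 18.2% of all 8515 pairs of miRNAs above 100 CPM. The 3p values rested on 42 to 400 reads. bta-let-7a-3p was the only other entry named let-7, and miR-3596, whose gene lies beside MIRLET7B, was at 0 in all 8 libraries.

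Outside the family, the miRNAs with the pattern most like that of a dominant member were named by the smallest SD of the log2 ratio over 8 libraries among 122 other miRNAs above 100 CPM. miR-26b was the closest to let-7c (0.17) and to let-7f (0.26) and stood next for let-7a-5p (0.24), for which miR-6529a was closest (0.24). For let-7i it was miR-424-3p (0.19). miR-26b stood at 599 ± 102 CPM in summer and 999 ± 293 CPM in winter (SD, n = 4), and at -0.71 on the log2 scale (limma adjusted p = 0.16). For let-7b the closest were miR-29a (0.21), miR-218 (0.22) and miR-3432a (0.23), with log2 fold changes of 0.23, -0.20 and 0.26. Since the SD spans both seasons, a season difference near that of the member is built into the choice of all these miRNAs. These values describe the 8 libraries, and none of these miRNAs outside the family was called.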

How the data were processed

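EV RNA was made into TruSeq small-RNA libraries and sequenced. In CLC Genomics Workbench the authors trimmed and mapped the reads (ARS-UCD1.2) and assigned them to miRBase entries. They deposited a signal per miRNA, TMM-adjusted CPM, whose columns sum to 860872 to 1222030. The submitters' processing notes also name Bowtie2 2.2.2 and DESeq2. Division by the smallest value above 0 of a library gave back its whole reads, and 100% of values were whole within 0.001.

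Seasons were compared by limma 3.58.1 (R 4.3.3, trend, no block) on log2(CPM + 1) for 243 miRNAs above 10 CPM on average, with Benjamini-Hochberg adjustment over all of them. Fold changes are on this scale. A call required a fold change over 1.5 together with an adjusted p under 0.1. Single values were compared by two-sided exact permutation tests. P-values measure the spread between pools. Alternatives changed the pseudocount, filter, scaling or variance setting, or used edgeR 4.0.16, DESeq2 1.42.0, voom, a replicate block and left-out libraries. Figures and shares used Python 3.11.15, scipy 1.17.1 and matplotlib 3.10.9.

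The members and all lists (cluster partners, opposite arms, markers of red and white blood cells, liver and plasma, granulosa and endothelial cells) were chosen with earlier results of these data known. The named miRNAs are the members, the partners, other let-7 entries, called markers, and the 3 miRNAs most like each member above 10000 CPM, of which the text gives the closest. miR-202, miR-132, miR-155, miR-150, miR-223, miR-126-5p, miR-142-3p, miR-383, miR-212, miR-144 and miR-3596 were named after their values were seen. Mature sequences and motifs were not analysed here.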

Additional observations from a re-analysis of the deposited data

Results flagged for a closer look

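Within groups of 4 libraries, 52 of which were examined (members, their shares, the family and its partners), 3 had 1 library far from the other 3, about what chance gives (1 in 20 groups). let-7d in SUM had 442 CPM in SUM replicate 3 against 933 to 1030 CPM in the others. let-7i made up 18.1% of the family in WIN replicate 3 against 16.5 to 16.7% in the other WIN libraries. miR-125a, the partner of let-7e, had 14638 CPM in WIN replicate 1 against 4053 to 5573 CPM in the others.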

How the results depend on the processing

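The count of members called lower in SUM was 1 with pseudocounts of 0.5 or 10 CPM, where 6 of all 243 tested miRNAs were lower. It was 0 without the abundance filter, without the trend and at an adjusted p below 0.05, 2 without the shallowest library of each season, 3 with a mean above 100 CPM, with robust variance and with the replicate block, 6 with median-of-ratios size factors, edgeR, DESeq2 and voom, and 8 after rescaling to equal summed CPM. Without the filter, without the trend and at an adjusted p below 0.05, 2, 4 and 0 of all tested miRNAs were lower. Over the 8 left-out libraries the count of members ranged from 0 to 1 and that of all tested miRNAs from 0 to 7. For the remaining settings the shares of all tested miRNAs are given above. No member was called higher in any of the 22 alternatives. The replicate numbers were not used as pairs, since the sources do not say that they mark shared cows and the deviations of same-numbered libraries correlated at -0.02, 0.30, 0.06 and 0.24. Not every library correlated best with its own number, though replicates 2 and 4 did, so whether some pools are matched was not settled. With the number as a block, 3 members (let-7a-5p, let-7e and let-7f) and 10 of all tested miRNAs were lower, against 1 and 6 without it.

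The season difference of let-7b, 0.03 on the log2 scale, turned to -0.15 (equal summed CPM), -0.0053 (median of ratios), -0.0035 (DESeq2) and, over left-out libraries, ranged from -0.14 to 0.14. Its exact permutation p was 0.49 as a share of the summed CPM and 0.97 with median-of-ratios size factors, also with a negative difference. miR-125a, at -0.05, turned to 0.082 with edgeR, 0.074 with DESeq2 and 0.84 without the shallowest library of each season, and ranged from -0.57 to 0.43 over left-out libraries. miR-99b, at -0.07, turned to 0.077 without the shallowest libraries and ranged from -0.22 to 0.12. The other 8 members stayed negative in all 22 alternatives. Members without overlap numbered 8 as shares of the summed CPM and 6 with median-of-ratios size factors. Leaving out a library cannot lower this count. The gap in family share ranged from -6.35 to -4.57 points over left-out libraries. Over all tested miRNAs, 0 to 22 were lower and 0 to 24 higher across the alternatives. Exact tests were not repeated on left-out libraries, where 3 against 4 cannot pass 0.05. Near 60 reads, as for miR-98 in SUM replicate 3, counting error limits the values.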
